A study of Rattus norvegicus with 17 samples.

Results

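Endothelium of the superficial epigastric vein that had developed neointimal hyperplasia (NIH) was set against endothelium of the epigastric vein that had kept venous flow, with 5 arrays of NIH vein and 6 of venous-flow vein, 11 of the 17 rat arrays in the series. Members were chosen by source name (NIH, or no pathology after ligation surgery). In the model, the vein was joined to the common femoral artery to make an arteriovenous fistula and tied off beyond the join. The NIH veins had carried arterial flow for 13 to 14 days, and the venous-flow veins came from the stretch past the ligation, which kept normal venous flow and showed no pathology. The source name of the venous-flow veins gives ligation surgery and their description gives fistula surgery, and the protocol states that every fistula operation included the ligation. Position along the vein, flow and lesion therefore cannot be told apart. The design text counts 6 rats and does not tie a region to a rat, so with 17 regions in the series, and 11 in this comparison, some regions share an animal by that count. Which ones do is not given, and every p-value here takes the regions as independent. Each sample title carries its own number, with the prefix AVF for the NIH veins and PL for the venous-flow veins. What these numbers stand for is not stated in the labels used here. Strain, sex and age are not given in the labels used here. Endothelium was cut by laser from frozen cross sections 10 µm thick, and each RNA specimen joined 10 such captures before 50 ng of it went into amplification.

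Neointimal hyperplasia is the growth of a new layer of cells and matrix on the luminal side of a vessel wall, and it is a main reason why fistulas made for haemodialysis narrow and fail. Endothelium senses shear stress and pressure, and answers through vasoactive peptides, adhesion molecules, growth factors and the junctions between its cells. Fibrillar collagens, fibronectin and small proteoglycans form the matrix of the new layer. Connective tissue growth factor (Ccn2) is a secreted matrix protein induced by mechanical load and by transforming growth factor beta, and adrenomedullin (Adm) is a vasodilator peptide that endothelium makes.

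The deposited data came in 2 forms that disagree on which arrays the venous-flow veins are, so the main results are given in both. The scanner output holds raw intensities, and the value table holds log2 values of 10000 of the 41372 gene probe spots. Over those 10000 spots the ranks of each scanner array matched those of 1 table column (rank correlation 1), and NIH veins 1 to 5 were the same arrays in both forms. The other 12 arrays carried other sample names, and the 6 venous-flow veins of the scanner output and the 6 of the value table shared 0 arrays. Venous-flow veins 1 to 3 of the value table are the arrays that the scanner output names side branch with stenosis, 1 to 3, and its veins 4 to 6 are those named femoral artery, 1 to 3. The mean correlation of a venous-flow vein with the others of its group was 0.549 to 0.803 under the value table's names, against 0.756 to 0.891 under the scanner output's. For the side branch with stenosis it was 0.817 to 0.894 under the value table's names, against 0.705 to 0.835 under the scanner output's. For the femoral artery it was 0.809 to 0.863 under the value table's names, against 0.778 to 0.878. Which naming is right could not be settled. Both comparisons use the same 5 NIH arrays, so the same sign in both forms is not independent evidence. Levels are log2 intensity after quantile normalization (lowest 5.65, median 6.12 in the scanner output), and a difference is NIH vein minus venous-flow vein. The median difference over all features was 0.0291 in the scanner output and 0.00138 in the value table.

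Some array measures moved with the groups, and their part in the results was not tested. The median signal above background averaged 60.7 intensity units in the NIH veins (46.95 to 80.94), against 43.5 in the venous-flow veins of the scanner output (30.9 to 56.3; exact permutation test, two-sided p = 0.039) and 40.4 in those of the value table (28.5 to 53.4; exact permutation test, two-sided p = 0.026). On 11 of the 17 arrays the background column equalled the mean of other arrays, so no probe could be called above or below background. That filling followed the groups: it was found on 0 of 5 NIH veins, against 6 of 6 venous-flow veins of the scanner output and 5 of 6 of the value table, and the signal above background rests on it. NIH vein 1 had a mean correlation of 0.606 with the other arrays, and veins 3 and 4 of the value table's venous-flow group had 0.606 and 0.639. Of 22 endothelial markers, Kdr and Sox18 were measured. Kdr, the main receptor for vascular endothelial growth factor A, had levels of 6.5 to 7.34 in the NIH veins and 5.83 to 7.74 in the venous-flow veins in the scanner output, and 6.04 to 7.08 in the NIH veins and 5.13 to 8.82 in the venous-flow veins in the value table. Sox18, an endothelial transcription factor, had 6.38 to 6.72 in the NIH veins and 6.38 to 6.98 in the venous-flow veins on its brighter probe, and 5.88 to 6.32 in the NIH veins and 5.55 to 6.81 in the venous-flow veins in the value table. Its dimmer probe had 5.69 to 6.11 in the NIH veins and 6.24 to 7.92 in the venous-flow veins of the scanner output, with no overlap and a difference of -1.03 ± 0.29 (SE; limma adjusted p over spots = 0.147). In the value table that probe had 4.81 to 5.5 in the NIH veins and 4.86 to 7.72 in the venous-flow veins, a difference of -0.75. The mean of both genes spanned 6.44 to 7.03 in the NIH veins and 6.17 to 7.28 in the venous-flow veins, and under the table's names 5.96 to 6.70 in the NIH veins and 5.66 to 7.82 in the venous-flow veins. With so few markers measured, the endothelial label rests on the capture protocol. In these captures, fewer cells of a type and less RNA per cell cannot be told apart.

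The promoters of Ccn2, Col1a2 and Adm are shown because their transcripts had a higher mean in the NIH veins in both forms and each has 1 annotated start in the table used. A higher mean in both forms was seen for 3770 of all 9446 features. The windows are 300 bases long, around the start of each gene, in build GRCr8 with RefSeq genes, printed 5′ to 3′ on the gene's strand. They lie at chr1:22624565-22624864 on the minus strand for Ccn2, at chr4:33518307-33518606 on the plus strand for Col1a2 and at chr1:174179950-174180249 on the plus strand for Adm. Capitals mark the motifs found.
Ccn2: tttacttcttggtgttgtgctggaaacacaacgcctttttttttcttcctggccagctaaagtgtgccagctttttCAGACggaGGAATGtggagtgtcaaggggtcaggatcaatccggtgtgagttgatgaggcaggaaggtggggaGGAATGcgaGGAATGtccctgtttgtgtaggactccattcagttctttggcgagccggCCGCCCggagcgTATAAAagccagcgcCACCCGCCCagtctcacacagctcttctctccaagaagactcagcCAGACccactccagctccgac
Col1a2: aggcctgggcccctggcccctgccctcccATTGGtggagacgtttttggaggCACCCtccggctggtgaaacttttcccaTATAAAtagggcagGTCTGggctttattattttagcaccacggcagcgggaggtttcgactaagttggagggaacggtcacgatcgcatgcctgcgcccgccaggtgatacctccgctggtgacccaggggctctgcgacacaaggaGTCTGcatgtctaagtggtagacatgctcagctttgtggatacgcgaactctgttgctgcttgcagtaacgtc
Adm: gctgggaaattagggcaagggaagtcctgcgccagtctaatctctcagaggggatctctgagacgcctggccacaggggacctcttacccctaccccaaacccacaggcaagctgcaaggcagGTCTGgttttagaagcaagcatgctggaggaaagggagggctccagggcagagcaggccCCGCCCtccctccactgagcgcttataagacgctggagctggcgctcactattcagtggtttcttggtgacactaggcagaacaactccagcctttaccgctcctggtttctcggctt

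Both strands were searched for the TATA box TATAAA, the CCAAT box CCAAT, the GC box GGGCGG, the SMAD core CAGAC, the TEAD core GGAATG, the hypoxia element core ACGTG, the AP-1 element TGANTCA and the KLF core CACCC. The TEAD core, bound by the partners of the mechanical sensor YAP, occurred 3 times in the Ccn2 window, at -166, -101 and -92 from the start, and in 14.2% of all 33469 windows at least once. Ccn2 also had a TATA box at -31 (14.2% of windows hold one), 2 SMAD cores (50.1%), 2 GC boxes (33.1%) and 1 KLF core (54.9%) that overlaps a GC box. Col1a2 had the letters TATAAA at -170, farther upstream of the start than in Ccn2. It also had a CCAAT box at -221 (37.5% of windows), 2 SMAD cores and 1 KLF core. Adm had 1 GC box at -68 and 1 SMAD core at -127, and neither the hypoxia core (19.3% of windows) nor the AP-1 element (7.33%) was in any of the 3 windows. These matches are letters in a window and show no binding.

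Col1a2, which encodes a chain of type I collagen, had levels of 14.23, 13.18, 15.12, 13.64 and 15.21 in NIH veins 1 to 5, against 10.92 to 13.33 with a median of 12.27 in the venous-flow veins of the scanner output. NIH vein 2 was the low NIH array, below venous-flow veins 2 and 4, and the other 4 NIH veins lay above every venous-flow vein. The difference was 2.07 ± 0.61 (SE), 4.21-fold, with a limma adjusted p of 0.16 over all features. With the value table's samples it was 2.11 ± 1.05 (limma adjusted p = 0.74), and the venous-flow veins read 13.17 to 15.21 in veins 1 to 3 and 8.82 to 11.35 in veins 4 to 6, so the first 3 lay among the NIH veins and the other 3 below them. A dimmer Col1a2 probe differed by 0.26 in the scanner output and 0.12 in the value table.

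Ccn2 had levels of 9.69, 8.33, 8.77, 9.29 and 8.41 in NIH veins 1 to 5, against 6.17 to 8.56 with a median of 6.64 in the venous-flow veins. Venous-flow vein 2 reached the NIH range and the other 5 lay below it. The difference was 1.92 ± 0.43 (SE), 3.79-fold, with a limma adjusted p of 0.0922. Without venous-flow vein 2, picked for its high level, the limma adjusted p was 0.0205, which adds no support. The value table gave 8.2 to 9.64 in the NIH veins and 5.22 to 7.52 in the venous-flow veins, with no overlap and a difference of 1.97 ± 0.44 (limma adjusted p = 0.285).

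**Figure D1:**
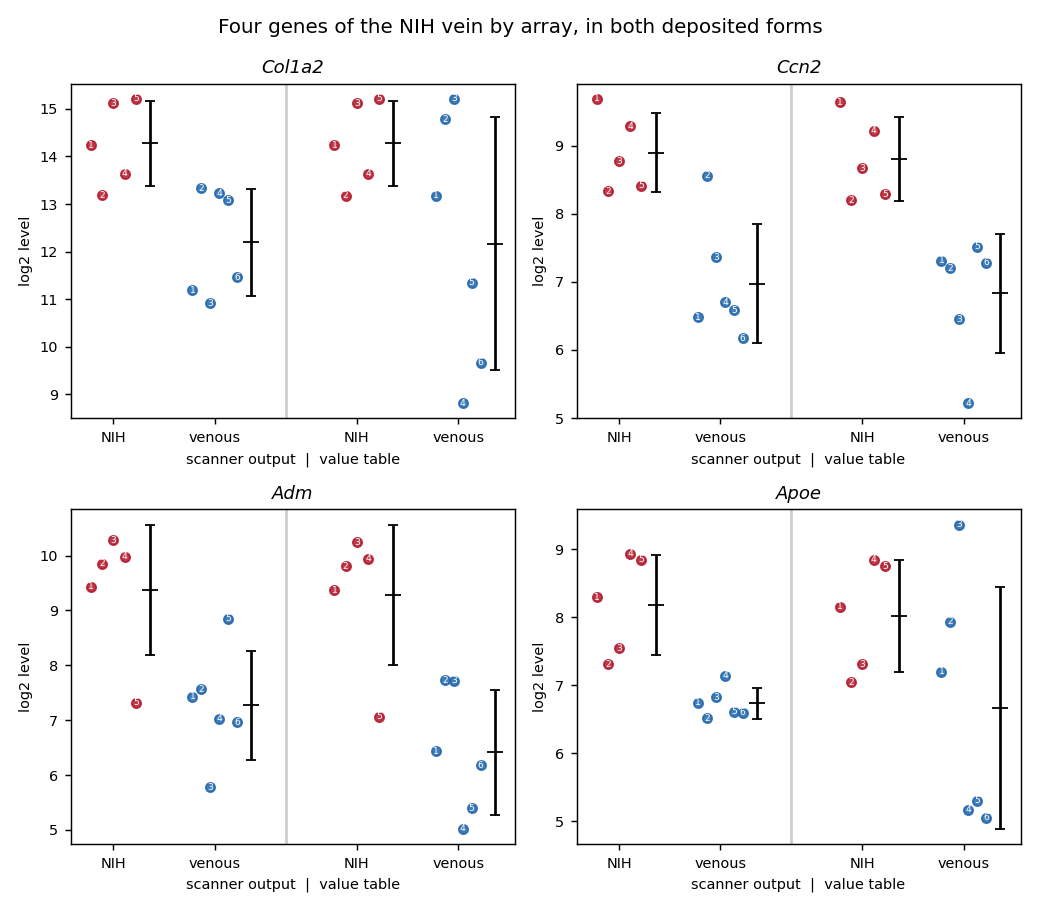
Log2 level (vertical axis) of Col1a2, Ccn2, Adm and Apoe on each array of the NIH veins and the venous-flow veins, in the scanner output and in the value table, with numbered replicates and the mean with 1 SD. For Ccn2 in the value table the NIH veins lie at 8.2 or above and the venous-flow veins at 7.52 or below.

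Adm had levels of 9.43, 9.85, 10.28, 9.98 and 7.32 in NIH veins 1 to 5, against 5.78 to 8.85 with a median of 7.23 in the venous-flow veins. NIH vein 5 was the low NIH array and lay among the venous-flow veins, while venous-flow vein 5 was the highest of its group. The difference was 2.1 ± 0.54 (SE), 4.3-fold, with a limma adjusted p of 0.119. The limma adjusted p was 0.0287 without NIH vein 5 and 0.0398 without venous-flow vein 5. Both arrays were picked by their own values, so these p-values add no support. By the value table's names the difference was 2.87 ± 0.68 (limma adjusted p = 0.303).

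Apoe, the gene of the lipid carrier apolipoprotein E, had levels of 8.29, 7.31, 7.54, 8.93 and 8.84 in NIH veins 1 to 5, against 6.51 to 7.14 with a median of 6.67 in the venous-flow veins. Every NIH vein lay above every venous-flow vein in the scanner output. The difference was 1.45 ± 0.34 (SE), 2.73-fold, with a limma adjusted p of 0.0974. The value table's venous-flow veins read 7.2 to 9.36 in veins 1 to 3 and 5.05 to 5.3 in veins 4 to 6, so the groups overlapped there, and the difference of 1.35 ± 0.69 had a limma adjusted p of 0.74.

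Of 9446 features, 2876 with a gene symbol, 3 passed a limma adjusted p of 0.05 in the scanner output (0.0318% of features), 2 of them higher (0.0212%) and 1 lower (0.0106%) in the NIH veins. Under the value table's names 0 features passed limma (0%), with 598 at an unadjusted p under 0.05 (6.33%) and a smallest limma adjusted p of 0.106. At an unadjusted limma p under 0.05 the scanner output had 942 features higher (9.97%) and 609 lower (6.45%), and the value table had 491 higher (5.2%) and 107 lower (1.13%). None of the 3 called features matched a gene symbol, so they are given by their array names.

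AI713966 had levels of 10.72, 8.96, 9.09, 8.99 and 8.21 in NIH veins 1 to 5, against 5.79 to 7.33 with a median of 6.12 in the venous-flow veins, with no overlap. It rose to a mean of 9.19 ± 0.92 in the NIH veins (SD, n = 5), against 6.28 ± 0.55 in the venous-flow veins (SD, n = 6), 7.54-fold (limma adjusted p = 0.0373), and by the value table's names the groups were also apart, with a difference of 2.89 ± 0.51 (limma adjusted p = 0.121). XM_341700 rose to 10.9 ± 0.51 in the NIH veins (SD, n = 5), against 8.62 ± 0.69 in the venous-flow veins (SD, n = 6), 4.85-fold (limma adjusted p = 0.0373). Its value-table difference was 1.2 ± 0.75 (limma adjusted p = 0.74). The groups overlapped there, at 10.14 to 11.5 in the NIH veins and 7.63 to 12.21 in the venous-flow veins. TC538999 fell to 5.99 ± 0.13 in the NIH veins (SD, n = 5), against 6.82 ± 0.19 in the venous-flow veins (SD, n = 6). The difference was -0.83 (limma adjusted p = 0.0373). Its NIH mean lay below the median level of 6.12 and near the lowest, 5.65, so no fold is given. Its value-table difference was -0.45 ± 0.27 (limma adjusted p = 0.74), and the groups overlapped there. Each of the 3 calls was lost when NIH vein 3 or 4, or venous-flow vein 1, 3, 4 or 6, was left out (limma adjusted p of 0.0718 to 0.176), and XM_341700 also without NIH vein 1 (limma adjusted p = 0.0609). All 3 were also lost in a fit of the 11 compared arrays alone (limma adjusted p of 0.0698 to 0.168).

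Igfbp3, which binds insulin-like growth factors in blood and around cells, was measured by 2 probes. The brighter, which stands for the gene, had levels of 11.46, 10.72, 11.47, 10.93 and 9.6 in NIH veins 1 to 5, against 6.91 to 9.92 with a median of 7.87 in the venous-flow veins. NIH vein 5 lay below venous-flow vein 2, and the other 4 NIH veins lay above the venous-flow range. The difference was 2.79 ± 0.52 (SE), 6.9-fold, with a limma adjusted p of 0.0777 over features. The groups were apart by the value table's names, at 9.55 to 11.45 in the NIH veins and 6.93 to 9.24 in the venous-flow veins, with a difference of 2.97 ± 0.56 (limma adjusted p = 0.121).

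The dimmer Igfbp3 probe was singled out after its values were seen. It had levels of 7.75, 7.2, 7.35, 7.91 and 7.69 in NIH veins 1 to 5, against 5.85 to 6.14 with a median of 5.93 in the venous-flow veins. The probe's venous-flow levels lay near the lowest level of 5.65. Its value-table levels were 6.91 to 7.73 in the NIH veins and 5.02 to 6.53 in the venous-flow veins, so the NIH veins stood above all 12 other arrays of the series. In a limma fit over the 10000 spots it rose by 1.63 ± 0.18 (SE) in the scanner output, with a limma adjusted p of 0.00296, where 4 spots passed (0.04%). That call held when each of the 11 arrays was left out in turn (limma adjusted p of 0.00351 to 0.0186). The probe was picked by its own values in these arrays, so these refits add no support. The value table gave 1.59 ± 0.26 (limma adjusted p = 0.0947).

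**Figure D2:**
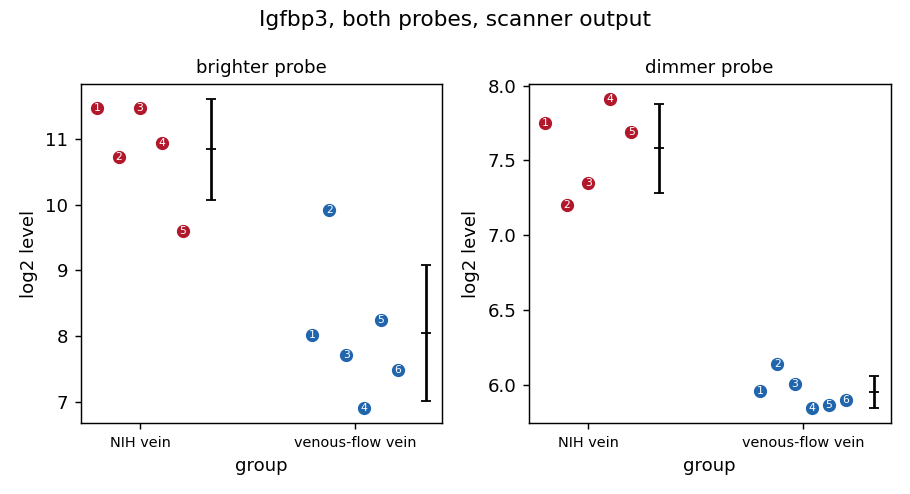
Log2 level (vertical axis) of the brighter and the dimmer Igfbp3 probe in NIH veins and venous-flow veins of the scanner output, with numbered replicates and the mean with 1 SD. On the dimmer probe the NIH veins lie at 7.2 to 7.91 and the venous-flow veins at 5.85 to 6.14.

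Of the insulin-like growth factor axis, 6 of 16 listed genes were measured and 0 were called in either form. Igf1, the growth factor itself, differed by -0.73 and -0.68 in the scanner output and the value table, and Igfbp4, another binding protein, by -0.44 and -0.71. Igf2r, the receptor that clears insulin-like growth factor 2, differed by 0.57 and 0.43. The list's medians were 0.0831 and -0.0349.

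Extracellular matrix genes were measured for 25 of 76 listed. A higher mean in the NIH veins was seen for 18 in the scanner output and 16 in the value table, 14 of them in both. Of all features 56.8% and 50.3% had one, and 3770 of 9446 had one in both forms. The list's median difference was 0.229 in the scanner output and 0.43 in the value table. None of the 25 was called by limma in either form. At an unadjusted limma p under 0.05, 8 were higher and 1 lower in the scanner output, and 3 were higher in the value table. Of all features, 9.97% were higher and 6.45% lower by that rule in the scanner output. Under the value table's names, 5.2% of all features were higher and 1.13% lower.

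Fn1, the fibronectin gene, had levels of 14.9, 12.59, 14.9, 13.99 and 10.87 in NIH veins 1 to 5, against 9.06 to 13.18 with a median of 10.93 in the venous-flow veins. NIH vein 5 lay near the venous-flow median and venous-flow vein 2 above NIH vein 2. The difference was 2.73 ± 0.90 (SE) (limma adjusted p = 0.177), and 1.59 ± 0.95 by the value table's names. A dimmer Fn1 probe differed by 0.78 in the scanner output and 0.31 in the value table. Bgn, the gene of the small proteoglycan biglycan, had levels of 15.54, 13.64, 15.54, 15.34 and 15.34 in NIH veins 1 to 5, against 11.48 to 15.21 with a median of 13.05 in the venous-flow veins. NIH vein 2 was low, venous-flow veins 2 and 5 were high, and the difference was 1.68 ± 0.71 (SE) (limma adjusted p = 0.252), against 1.95 ± 0.88 in the value table.

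Other matrix members are named here after their values were seen. Fbn1, encoding the microfibril protein fibrillin 1, differed by 0.93 and 1.26 in the scanner output and the value table, Loxl1, a collagen and elastin crosslinking enzyme, by 1.02 and 0.45, and the membrane protease Mmp14 by 1.15 and 1.03. Timp1, an inhibitor of such proteases, differed by 0.89 and -0.17, so its sign depended on the form. Fibromodulin (Fmod), which binds collagen fibrils, differed by -1.54 and -0.99. Elastin (Eln) differed by -0.039 and -0.032.

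Of genes of transforming growth factor beta signalling and mesenchymal transition, 17 of 45 were measured, 11 with a higher mean in the scanner output and 12 in the value table, with 0 called. Grem1, a secreted antagonist of bone morphogenetic proteins, had levels of 6.39, 7.04, 7.7, 6.79 and 6.07 in NIH veins 1 to 5, against 5.66 to 6.03 with a median of 5.72 in the venous-flow veins, with no overlap. Its venous-flow levels lay near the lowest level of 5.65. The difference was 1.03 ± 0.21 (SE) (limma adjusted p = 0.0866) and 0.77 ± 0.41 by the value table's names, where the groups overlapped. Snai1, a transcription factor of mesenchymal transition, differed by -1.18 ± 0.28 (SE) (limma adjusted p = 0.104) and -0.84 ± 0.51 in the value table, but its second probe differed by 0.83 in the scanner output, so the direction rests on the probe. Twist1, another such factor, had 5.93 ± 0.06 in the NIH veins (SD, n = 5) and 6.43 ± 0.28 in the venous-flow veins (SD, n = 6), with no overlap and a limma adjusted p of 0.143. Its NIH mean lay near the lowest level of 5.65. Under the table's names it differed by -0.42 ± 0.26 (limma adjusted p = 0.74), and the groups overlapped at 5.11 to 5.35 in the NIH veins and 5.11 to 6.69 in the venous-flow veins. The receptor Tgfbr1 differed by -2.37 and -2.005, and S100a4, a calcium-binding protein of motile cells, by 2.04 and 0.75; both were named after their values were seen.

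Angiogenesis and adrenomedullin genes were measured for 12 of 45, with 4 higher in each form and 0 called. Besides Adm, Esm1, a proteoglycan secreted by sprouting endothelium, differed by 0.97 ± 0.35 (SE) (limma adjusted p = 0.198) and 1.48 ± 0.44 in the value table. Vegfc, the lymphatic growth factor, differed by 0.73 and 0.46. Vegfa differed by -0.01 and -0.22, the hypoxia factor Hif1a by -0.03 and 0.11 and Ramp1, a subunit of calcitonin-family receptors, by -0.73 and -0.40.

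Lysosomal genes were measured for 14 of 35, with 11 higher in the scanner output and 6 in the value table. Ctsl, the gene of the protease cathepsin L, had levels of 10.52, 10.43, 10.73, 11.44 and 9.86 in NIH veins 1 to 5, against 7.5 to 10.0 with a median of 8.24 in the venous-flow veins. Venous-flow vein 5 reached the NIH range, and the other 5 lay below it. The difference was 2.06 ± 0.51 (SE), 4.17-fold, with a limma adjusted p of 0.106, and 2.41 ± 0.82 in the value table. Without venous-flow vein 5, picked for its high level, the limma adjusted p was 0.0346, which adds no support. Ctsb, encoding cathepsin B, differed by 1.46 and 0.58. Of the lipid-handling list, 13 of 36 were measured, with 7 higher in the scanner output and 10 in the value table. Olr1, the endothelial receptor for oxidized low-density lipoprotein, had levels of 9.48, 8.63, 7.49, 7.71 and 6.5 in NIH veins 1 to 5, against 5.82 to 6.88 with a median of 6.38 in the venous-flow veins. NIH vein 5 was the 1 NIH array within the venous-flow range, and the difference was 1.6 ± 0.40 (SE) (limma adjusted p = 0.109) and 1.77 ± 0.55 in the value table. No gene of either list was called.

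Endothelial junction and connexin genes were measured for 6 of 23. A lower mean in the NIH veins in both forms was seen for 5 of the 6. Of all features 43.2% and 49.7% had a lower mean in the scanner output and the value table, and 3094 of 9446 had one in both. The list's median differences were -0.734 and -0.433, and 0 of its members were called. Gjd3, a connexin gene, had levels of 6.84, 8.06, 6.85, 6.23 and 5.94 in NIH veins 1 to 5, against 7.23 to 9.47 with a median of 8.67 in the venous-flow veins. NIH vein 2 was the high NIH array, above venous-flow veins 2 and 5, and the other 4 lay below the whole venous-flow range. The difference was -1.76 ± 0.40 (SE) (limma adjusted p = 0.0922), and -1.2 ± 0.77 in the value table. Gja1, encoding connexin 43, differed by -0.98 and -0.20, Gja5, encoding connexin 40, by -0.41 and -0.34 and Jam3, a junctional adhesion molecule, by -0.64 and -0.87. Its relative Jam2 differed by -0.82 and -0.53, with a second probe at 0.14 and 0.11. Gja4, encoding connexin 37, was the member with a higher mean, at 0.26 and 0.13.

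Leukocyte adhesion genes were measured for 6 of 23, and 3 had a higher mean in each form. Selp, encoding P-selectin, differed by 0.72 and 1.0, and Mcam, an adhesion molecule of endothelium and pericytes, by 0.62 and 1.44, with no overlap in the value table. Icam1 and Vcam1, which bind leukocyte integrins and are named after their values were seen, differed by 0.48 and 1.31 and by -0.83 and -1.01. No member was called.

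Of chemokines, cytokines and their receptors, 16 of 53 were measured, with 8 higher in the scanner output and 6 in the value table, and 0 called. Il1rl1, the receptor for interleukin 33, had levels of 10.74, 8.71, 8.14, 11.21 and 9.34 in NIH veins 1 to 5, against 5.74 to 9.77 with a median of 6.11 in the venous-flow veins. Venous-flow vein 2 was far above the other 5, which lay at 6.5 or lower. The difference was 2.97 ± 0.79 (SE) (limma adjusted p = 0.127), against 2.7 ± 1.05 in the value table. Without venous-flow vein 2, picked for its high level, the limma adjusted p was 0.0333, which adds no support. The ligand gene Il33 differed by 0.0026 and 0.098. Il1b differed by -0.65 and -0.35 and Ccl2 by 0.14 and -0.32.

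**Figure D3:**
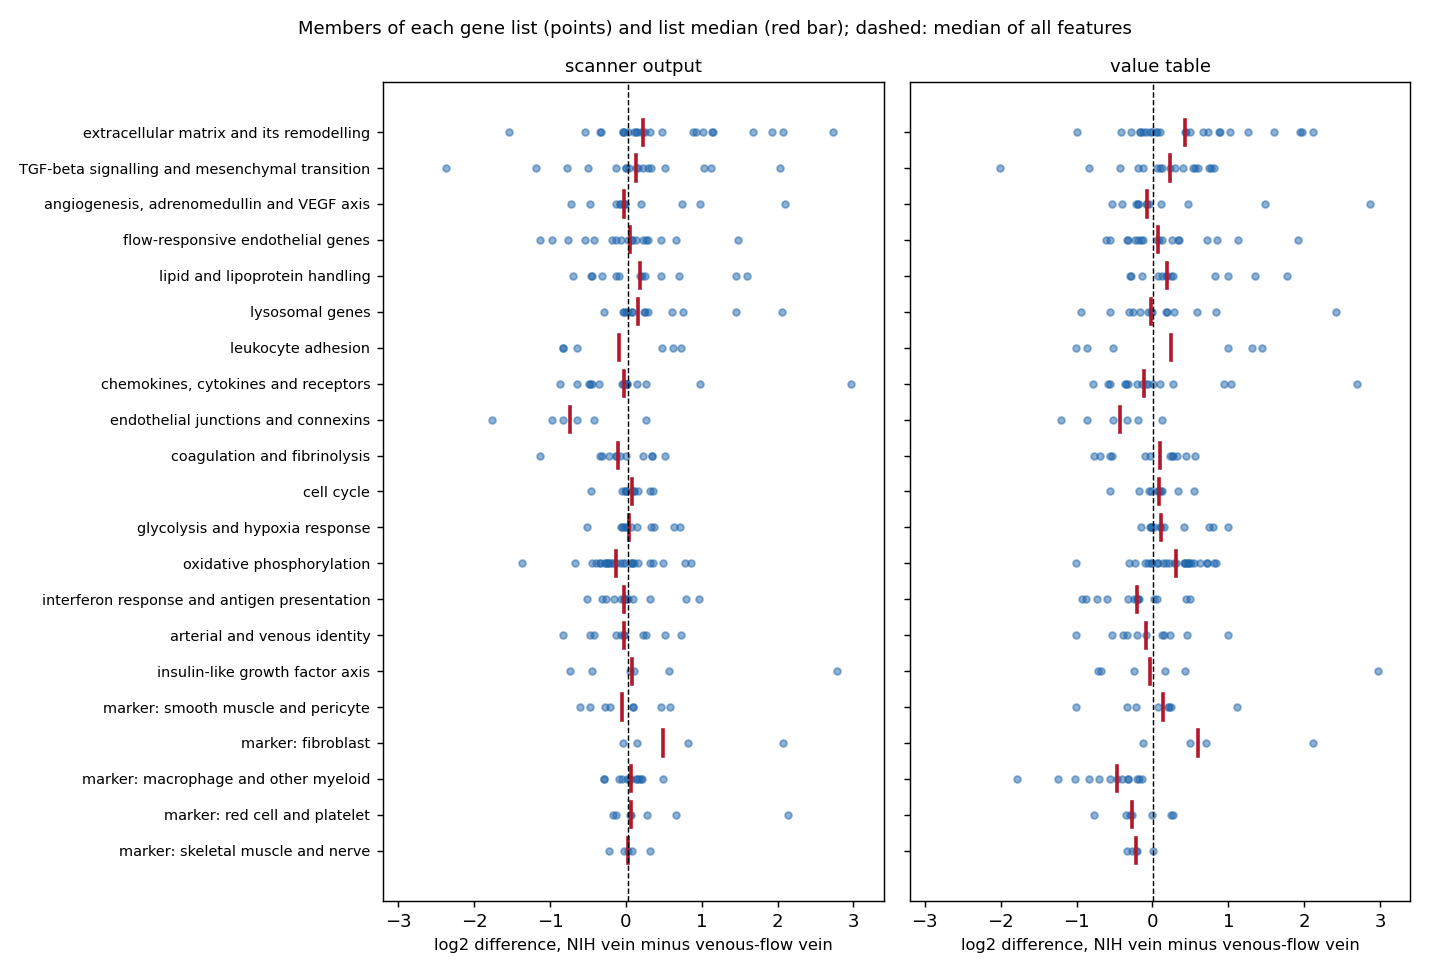
Log2 difference, NIH vein minus venous-flow vein (horizontal axis), of the measured members of each gene list, with the list's median and the median of all features, in the scanner output and in the value table. The junction genes have medians of -0.734 and -0.433, and the myeloid markers 0.0662 and -0.465.

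Flow-responsive endothelial genes were measured for 18 of 37, with 10 higher in each form and 0 called. Klf6, a zinc-finger transcription factor, differed by 1.47 and 1.92, Txnrd1, a thioredoxin reductase, by 0.47 and 0.35 and Thbd, the anticoagulant thrombomodulin, by -1.13 and 0.26. Coagulation genes had 4 of 12 higher in the scanner output and 6 in the value table. Cell cycle genes had 7 of 11 higher in each form, and Cdk1, the mitotic kinase, differed by 0.36 and 0.33. Glycolysis and hypoxia genes had 8 of 12 higher in each form. Oxidative phosphorylation genes had 10 of 27 higher in the scanner output and 20 in the value table, with medians of -0.124 and 0.309, so the sign of the list's median depended on the form. Interferon and antigen presentation genes had 6 of 14 higher in the scanner output and 4 in the value table, and arterial and venous identity genes 4 and 5 of 11. No member of these lists was called.

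Markers of other cell types are given as the range over arrays of the mean level of each list, and their part in the results was not tested. Fibroblast markers (4 of 14 measured) spanned 8.34 to 9.78 in the NIH veins and 7.74 to 9.03 in the venous-flow veins, and under the table's names 7.92 to 9.45 in the NIH veins and 6.51 to 9.33 in the venous-flow veins. Col1a2 is 1 of those 4 markers, so the list's level is not separate from the Col1a2 result; of the others Thy1, a surface glycoprotein, differed by 0.82 and 0.70, Col3a1 by 0.15 and 0.50 and Dcn, encoding decorin, by -0.041 and -0.12. Smooth muscle and pericyte markers (8 of 20) spanned 7.29 to 7.81 in the NIH veins and 7.34 to 7.90 in the venous-flow veins, and under the table's names 6.79 to 7.37 in the NIH veins and 6.65 to 7.41 in the venous-flow veins. Myeloid markers (13 of 29) spanned 6.31 to 6.80 in the NIH veins and 6.23 to 6.75 in the venous-flow veins, with 9 higher. By the value table they spanned 5.73 to 6.33 in the NIH veins and 5.87 to 7.45 in the venous-flow veins, with 0 of 13 higher and C1qb, a complement gene of macrophages named after its values were seen, differing by -1.79. Red cell and platelet markers (7 of 21) spanned 7.24 to 8.19 in the NIH veins and 6.74 to 7.82 in the venous-flow veins, with 5 of 7 higher. In the value table they spanned 6.62 to 7.78 in the NIH veins and 6.69 to 8.47 in the venous-flow veins, with 2 of 7 higher. Among them Hbb-b1, a haemoglobin chain, differed by 2.14 and 0.24. Of 22 markers of T, B and NK cells, Klra5 and Cd3d were measured, and spanned 6.29 to 6.67 in the NIH veins and 5.90 to 6.44 in the venous-flow veins, both with a higher mean. Both had a lower mean in the value table, at 5.75 to 6.26 in the NIH veins and 5.82 to 7.24 in the venous-flow veins. Skeletal muscle and nerve markers (5 of 20) spanned 6.23 to 6.66 in the NIH veins and 6.35 to 6.48 in the venous-flow veins, and under the table's names 5.65 to 6.23 in the NIH veins and 5.92 to 6.52 in the venous-flow veins. None of the 12 adipocyte markers was measured.

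The genes with the 10 highest and 10 lowest differences were taken from the 110 features with a symbol that had an unadjusted limma p under 0.05 and the same sign in both forms. Of those 110, 93 had a higher mean in the NIH veins; over all features 3.12% were higher and 0.487% lower by that rule. The 10 highest were Il1rl1, Igfbp3, Adm, Ctsl, Ubd, Ccn2, Fat1, Bgn, Myh10 and Olr1. Ubd, a ubiquitin-like modifier induced by inflammatory cytokines, had levels of 7.41, 9.34, 9.41, 7.68 and 6.9 in NIH veins 1 to 5, against 5.78 to 7.01 with a median of 6.06 in the venous-flow veins. Venous-flow vein 2 lay just above NIH vein 5, the difference was 1.96 ± 0.42 (SE) (limma adjusted p = 0.0922), and the value table gave 2.51 ± 0.52. Fat1, an atypical cadherin gene, differed by 1.8 ± 0.55 (SE) and 1.98 ± 0.75, and Myh10, a non-muscle myosin gene, by 1.67 ± 0.65 (SE) and 2.44 ± 0.66.

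The 10 lowest were Slc30a3, Dnm2, C1qtnf5, Ndrg2, Oprm1, Prph, Gabarap, Neurod2, Tsc22d3 and Gpx1, and none passed limma's adjusted threshold. Slc30a3, which loads zinc into synaptic vesicles, had levels of 6.9, 11.56, 8.24, 9.5 and 6.49 in NIH veins 1 to 5, against 8.34 to 13.12 with a median of 12.22 in the venous-flow veins. The spread within both groups was wide, with NIH vein 2 high and venous-flow vein 5 low, and the difference was -3.04 ± 1.08 (SE) (limma adjusted p = 0.189) and -2.77 ± 1.27 in the value table. Dnm2, the dynamin of endocytosis, had levels of 6.21, 10.48, 7.05, 7.64 and 6.33 in NIH veins 1 to 5, against 7.04 to 12.01 with a median of 11.23 in the venous-flow veins, a difference of -2.88 ± 1.00 (SE), and -2.66 ± 1.25 in the value table. C1qtnf5 differed by -2.81 and -3.01, Ndrg2 by -2.59 and -1.69 and Gabarap, a protein of autophagosomes, by -1.5 and -1.27. Oprm1, the mu opioid receptor, Prph, a neuronal intermediate filament, and Neurod2, a neuronal transcription factor, differed by -2.01 and -2.26, by -1.9 and -1.88 and by -1.4 and -1.52.

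Tsc22d3, the glucocorticoid-induced leucine zipper gene, had levels of 7.23, 7.0, 7.33, 6.95 and 6.56 in NIH veins 1 to 5, against 7.33 to 9.37 with a median of 7.89 in the venous-flow veins. NIH vein 3 and venous-flow vein 2 touched at 7.33, and the difference was -1.12 ± 0.34 (SE) (limma adjusted p = 0.161). By the value table's names the groups were apart, at 6.11 to 7.07 in the NIH veins and 7.63 to 8.22 in the venous-flow veins, with a difference of -1.28 ± 0.20 and the smallest limma adjusted p in that form, 0.106. Gpx1, an enzyme that reduces peroxides, differed by -1.08 ± 0.33 (SE) and -1.17 ± 0.33, and a second probe by -0.16 and -1.04.

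**Figure D4:**
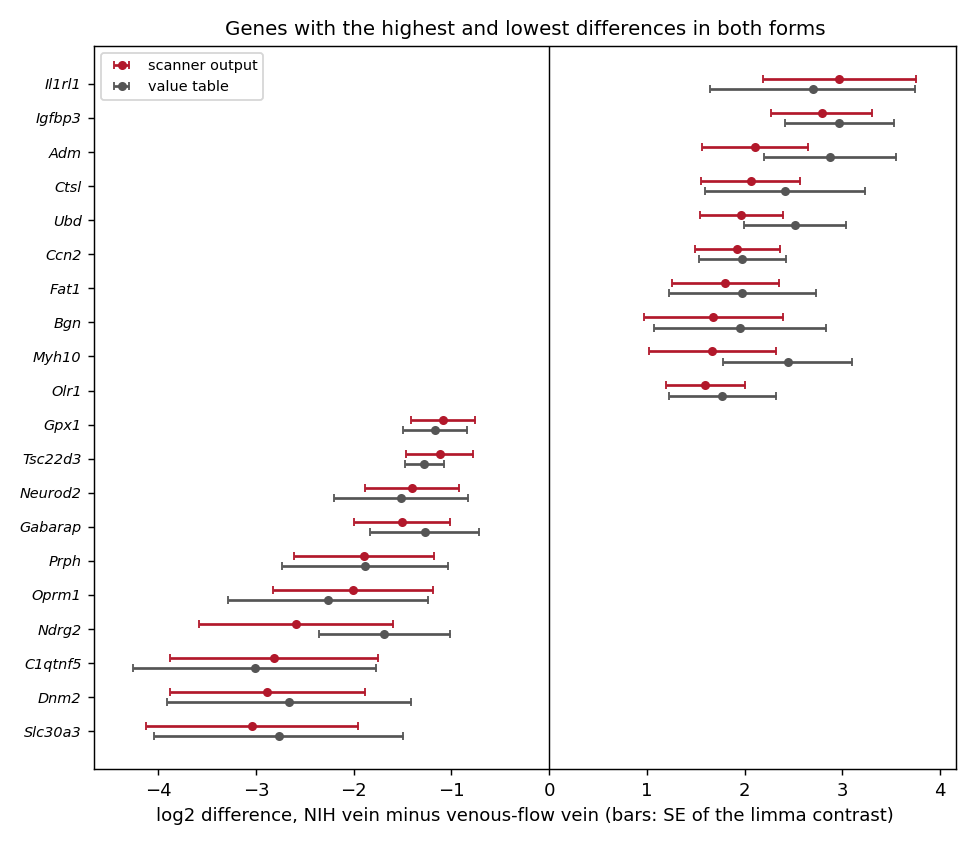
Log2 difference with its SE, NIH vein minus venous-flow vein (horizontal axis), of the 10 highest and 10 lowest genes, in the scanner output and in the value table. Scanner differences run between -3.04 for Slc30a3 and 2.97 for Il1rl1.

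Venous-flow veins 2 and 5 were the highest 2 of their group in 7 of the 10 higher genes and the lowest 2 in 8 of the 10 lower genes, so in those genes they lay nearer the NIH veins than the other venous-flow veins did. The exceptions were Il1rl1, Ccn2 and Myh10 among the higher genes, and Ndrg2 and Tsc22d3 among the lower ones. In Ndrg2, venous-flow vein 5 was the highest of its group at 12.91. NIH vein 2 was the highest NIH array in 8 of the 10 lower genes. With all arrays limma called 3 of 9446 features (0.0318%). When 1 of NIH veins 3 and 4 or venous-flow veins 1, 3, 4 and 6 was left out, limma called 0. Without venous-flow vein 5 it called 274 (68 higher, 206 lower), without NIH vein 2 it called 81 (37 higher, 44 lower), without venous-flow vein 2 it called 27 (25 higher, 2 lower), without NIH vein 5 it called 25 (24 higher, 1 lower) and without NIH vein 1 it called 7 (6 higher, 1 lower).

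**Figure D5:**
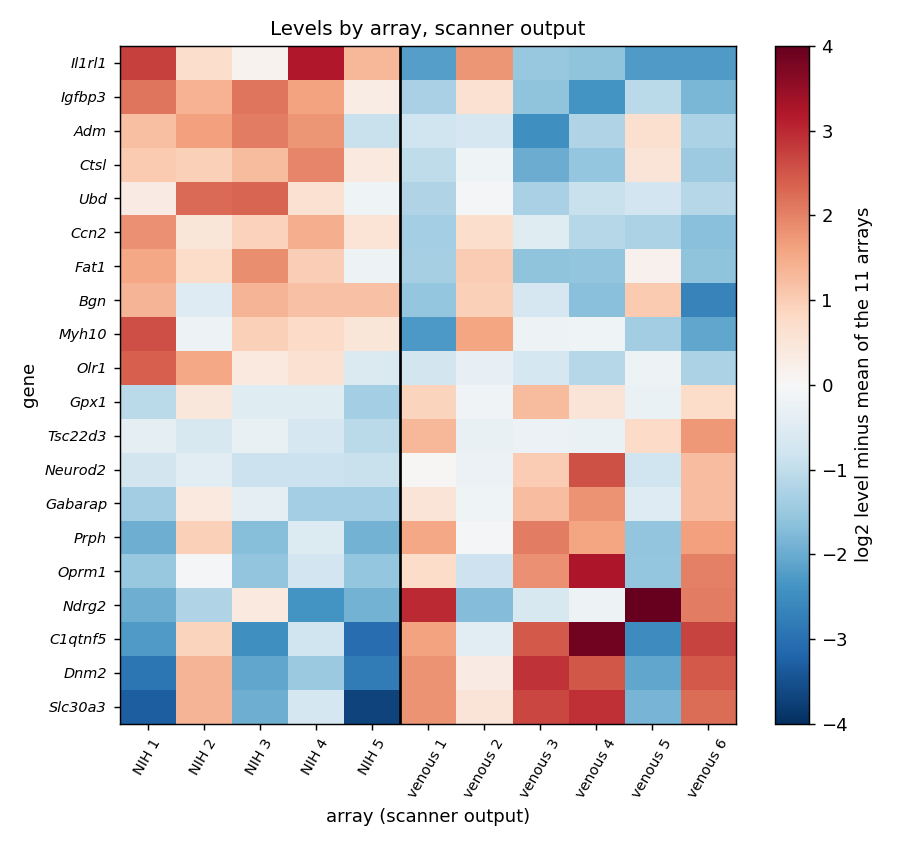
Log2 level of each of the 20 genes (rows) on each scanner-output array (columns) relative to the gene's mean over the 11 arrays, as colour. Venous-flow veins 2 and 5 are the highest 2 of their group in 7 of the 10 higher genes and the lowest 2 in 8 of the 10 lower genes.

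Groups without overlap were seen for 91 features higher (0.963%) and 22 lower (0.233%) in the scanner output, and for 32 higher (0.339%) and 5 lower (0.0529%) in the value table. With every NIH vein above every venous-flow vein in both forms, and so above all 12 other arrays, there were 8 features (0.0847%), AI713966 among them, and 0 lay below in both. None of the 8 matched a symbol.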

How the data were processed

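Laser-captured endothelium of 17 vessel regions was hybridized to single-colour arrays. The deposited scanner output gives each spot's mean signal and background as raw intensity, per the file headers. The authors' deposited value table gives log2 values that are quantile normalized, as its sorted columns show; how its 10000 spots were chosen is not known here. Members and gene lists were chosen with earlier results of these data known.

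Intensity was background-corrected with normexp (offset 50), put on the log2 scale and quantile normalized across arrays, over those 10000 spots. On 11 arrays the background column is, within 0.001, an average of 2 other arrays, as was the signal of 92.7% to 100% of the gene probe spots outside the value table, which were not used. The deposited difference column of venous-flow vein 5 is not its signal minus its background, so the latter columns were used. Accessions named 31.2% of the spots by 1 RefSeq symbol (GRCr8). The probe of highest mean stood for a gene. limma 3.58.1 in R 4.3.3 was run on all 17 arrays, each group having its own mean, two-sided, with Benjamini-Hochberg adjustment over 9446 features, and likewise to the value table under its own sample names; the fit was tested on simulated data. The number of arrays limits precision. Named genes were Col1a2, Ccn2, Adm and Apoe; every called feature; the 10 highest and 10 lowest symbols with an unadjusted p under 0.05 and 1 sign in both forms; up to 3 genes of each list by smallest p; and up to 8 symbols per direction with groups apart in both forms, of which there were 0. Other list members were named after their values were seen, and the values of 2 genes are not reported here. Alternatives were the value table, other background settings, median scaling, a filter on mean level, the 11 arrays alone, the mean of probes, array weights, a replicate block and leaving out each array. Same-numbered arrays of the scanner output did not deviate together (r of -0.547 to -0.0246), so numbers were not taken as pairs. That check cannot exclude that some regions share an animal.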

Additional observations from a re-analysis of the deposited data

Results flagged for a closer look

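Over 81 genes and 243 groups of arrays, 9 groups held an array set far from the rest by Dixon's criterion, where chance gives about 1 in 20. In the scanner output NIH vein 5 was low for Adm at 7.32, and NIH vein 2 was low for Bgn at 13.64. Venous-flow vein 2 was high for Il1rl1 at 9.77, for Grem1 at 6.03, for Lipa, a lysosomal lipase gene, at 6.06 and for Nrg1, a growth factor gene, at 6.46. Venous-flow vein 4 was high for Irf3, an interferon regulatory factor gene, at 7.96. By the value table, venous-flow vein 3 was low for Plk1, a mitotic kinase gene, at 4.82, and venous-flow vein 4 was high for Slc4a1, a red cell anion exchanger gene, at 6.67.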

How the results depend on the processing

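The 3 features called by limma in the scanner output became 0 with the samples of the value table, 0 with the scanner arrays grouped by that table, 0 in a fit of the 11 arrays alone (1531 at an unadjusted p under 0.05), 9 with median scaling (8 higher, 1 lower, without XM_341700 at a limma adjusted p of 0.0766), 8 among the 4723 features of highest mean, where fewer features were tested, and 248 with array weights (162 higher, 86 lower); other settings gave 3 or 4. Leaving out 1 array gave 0 to 274. By the value table the count was 0 or 1, with 1 only when venous-flow vein 2 was left out. With a replicate block, although whether the numbers pair arrays is not known, 0 features were called in either form (928 and 461 at an unadjusted limma p under 0.05). The dimmer Igfbp3 probe then had a limma adjusted p of 0.252. The block takes venous-flow vein 6 out of the contrast, because no other group has a replicate of that number. With array weights limma also called 18 named genes, 14 higher and 4 lower, where it called 248 of all 9446 features. The limma adjusted p of these genes ran from 0.0111 for Grem1 to 0.0448 for Fat1. Ccn2, Adm, Apoe, Igfbp3, Ctsl, Fn1 and Thy1 were among the higher ones, and Snai1, Twist1, Gjd3 and Ndufv1 were the lower ones. Why the weights raised the count was not tested. Many named genes were chosen by small p-values or large differences in these data, so these calls add no support. Igfbp3 was called with the mean of its probes (limma adjusted p = 0.0208) and among the features of highest mean (limma adjusted p = 0.0416). Its dimmer probe kept its call under the other background settings, median scaling, array weights and the 11 arrays alone (limma adjusted p of 0.000239 to 0.00638). That probe was picked by its values, so these calls add no support either. By the value table its limma adjusted p was 0.043 to 0.232 without each array. Some signs turned, and the cause was not tested. With the samples of the value table Lyn differed by -0.40, Cd14 by -0.14, Laptm5 by -0.33, Klra5 by -0.50 (0.53 in the scanner output), Cd3d by -0.066 and Gp9 by -0.012. Kdr differed by 0.036 with plain subtraction, 0.16 with median scaling, 0.083 with an offset of 16, 0.10 with array weights, 0.12 with the block and -0.23 to 0.16 without 1 array. Sox18 differed by 0.00754 without subtraction, 0.13 with median scaling, 0.016 with the block and -0.10 to 0.016 without 1 array, and Dcn by -0.10 to 0.034. Gp9 differed by -0.00949 without subtraction and -0.072 with median scaling, where Notch3 differed by 0.11.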

Other observations

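Nrg1, which encodes a growth factor that endothelium releases, was picked after its values were seen. It had levels of 6.84, 6.31, 6.5, 6.96 and 6.86 in NIH veins 1 to 5, against 5.69 to 6.46 with a median of 5.84 in the venous-flow veins of the scanner output. That median lay near the lowest level of 5.65. The difference was 0.78 ± 0.14 (SE) (limma adjusted p = 0.0759), and under the value table's names 1.17 ± 0.22 with no overlap (limma adjusted p = 0.121). A second Nrg1 probe differed by -0.44 and -0.39.

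For several named genes the venous-flow veins of the value table lay in 2 ranges, split between the arrays that the scanner output names stenotic side branch (veins 1 to 3) and femoral artery (veins 4 to 6). Il1rl1 read 6.87 to 10.42 in veins 1 to 3 and 4.88 to 5.18 in veins 4 to 6, Gjd3 5.72 to 6.35 in veins 1 to 3 and 8.77 to 9.43 in veins 4 to 6, and Ndufv1, a subunit of respiratory complex I, 4.87 to 5.42 in veins 1 to 3 and 7.55 to 8.22 in veins 4 to 6.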
